A study of Mus musculus with 6 samples.

Results

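Acyl-CoA synthetases and fatty acid desaturases were examined in WT and Piezo1cKO leukemia stem cells (LSCs), through 10 genes chosen by name: the long-chain acyl-CoA synthetases Acsl1, Acsl3, Acsl4, Acsl5 and Acsl6, the lysophospholipid acyltransferase Lpcat3, the stearoyl-CoA desaturases Scd1 and Scd2, and the front-end desaturases Fads1 and Fads2. All 10 have values among the 26402 genes with values, out of 55367 listed. The minimum mean value for the test was passed by 9 of them and by 16746 genes in all. Scd1, with 1 recovered read in each group of libraries, did not pass. Fads2 and Fads1 rose in Piezo1cKO LSCs, Acsl3 fell to 33.5% of its WT level, Acsl4 rose slightly, Acsl5 and Scd2 fell slightly, and Acsl1 and Lpcat3 did not pass the test.

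Long-chain acyl-CoA synthetases join a free fatty acid to coenzyme A, which is how a fatty acid becomes available for membrane lipids, storage or oxidation. Their substrates differ: the Acsl4 product is known for its preference for arachidonic and adrenic acid, while the Acsl3 product, found on the endoplasmic reticulum and lipid droplets, is known for activating monounsaturated fatty acids such as oleate. Lpcat3 encodes the enzyme that places polyunsaturated acyl chains into lysophospholipids. Stearoyl-CoA desaturases make monounsaturated fatty acids from saturated ones, and Fads1 and Fads2 encode the desaturases that, together with elongases, turn dietary linoleic and alpha-linolenic acid into arachidonic acid and its relatives. Polyunsaturated phospholipids are the substrate of the lipid peroxidation that defines ferroptosis, and monounsaturated ones are known to oppose it, which is why these genes are often read as a balance.

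The study compared 3 WT with 3 Piezo1cKO libraries of LSCs sorted from the bone marrow of mice with MLL-AF9 induced AML, the labels giving an age of 8 to 10 weeks. Piezo1cKO cells came from Mx1-cre Piezo1 fl/fl mice and WT cells from littermates with the floxed alleles and no Cre, both treated with poly(I:C), which switches on the interferon-responsive Mx1 promoter in blood cells and in other tissues. Lineage-negative marrow cells of both genotypes were infected with an MLL-AF9 retrovirus carrying YFP and transplanted into irradiated mice, and LSCs were gated as YFP+ Lin- Sca-1- c-Kit+ cells that were also CD34+ and high for CD16/32, the Fc gamma receptors. Whether the 6 libraries came from separate mice, and from first or later recipients, is not given in the sources used here, so p-values measure the spread between these libraries, which may be technical. Library construction followed a variant of Smart-seq2, which does not keep the strand of the RNA.

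The deposited values, log2 in scale, have been drawn in towards the average of the gene across libraries, most strongly for genes with few reads, so that log2 fold changes of these values are smaller than those of the reads. The pull was undone with an assumed formula, which the sources used here do not name, and the output was rounded to whole reads. These are called recovered reads here, in totals of 14112075 to 15483583 per library. Before rounding, 90.5% of values lay within 0.1 of a whole number in genes averaging 1 read or more. Reads carry no molecular identifiers, and intervals from counts cover counting error only. A gene was called when its adjusted p in limma (Benjamini-Hochberg over all genes tested) was under 0.05, and was a DEG when its log2 fold change was also beyond 1 in either direction.

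The targeted gene, Piezo1, which encodes a mechanically gated cation channel, had 104, 92 and 113 recovered reads in the WT and 35, 58 and 45 in the Piezo1cKO libraries. Its level was 45.9% of WT, and the deposited values differed by -0.29 on the log2 scale (adjusted p = 5.8e-06, limma), so reads of the gene were reduced and not absent in the libraries labelled as knockout. These reads are counted over the whole gene and cannot show whether the floxed part was removed. The study reported effective deletion of Piezo1 by qRT-PCR after the poly(I:C) treatment. All 9 genes checked for the LSC gate and the MLL-AF9 program were detected, with 3 called higher, 4 lower and 2 not called. Their summed normalized reads ran from 515608 to 556325 in WT and from 274485 to 295662 in Piezo1cKO libraries, which was mostly the granule protein genes Mpo (mean 290092 in WT and 157997 in Piezo1cKO) and Elane (229669 and 107795), both called lower. Of the genes whose products were used in the sort, Kit went from a mean of 2522 to 3425 and Cd34 from 3721 to 5796, both called higher, and Fcgr3 was not called. Among the remaining genes, Itgam was called higher, Meis1 and Myb were called lower, and Hoxa9 was not called. Markers of other cell types moved with genotype. The summed normalized reads of 6 mast cell and basophil markers ran from 2914 to 3040 in WT and from 9634 to 9844 in Piezo1cKO libraries, with 5 called higher. Those of 7 neutrophil markers ran from 2041 to 2062 and from 888 to 931.8, with 3 called lower and 1 higher. Ngp (mean 1277 in WT and 140 in Piezo1cKO), Camp (688 and 100) and Mmp9 were lower, while Mmp8 (42.5 and 633) was higher. The sums of 8 macrophage and dendritic cell markers ran from 911 to 989 and from 944.5 to 1070, mostly from Adgre1 and Vcam1, neither called. The 4 called higher were C1qb, C1qc, Mrc1 and Siglech. They had at most 2 reads in any WT library and entered the test with the help of their Piezo1cKO libraries. Summed levels of 6 B cell markers, almost all from Ighm and Cd79b, ran from 12224 to 12586 and from 22353 to 22738, with 3 called higher. Those of 6 T and NK cell markers, almost all from Nkg7 with Cd8a at 0, ran from 3998 to 4182 and from 2451 to 2503, with 2 called lower and 1 higher. For 6 stromal and endothelial markers, mostly Pecam1, they ran from 2894 to 2941 and from 3438 to 3692, with 2 called higher, and for 4 megakaryocyte markers from 261 to 318 and from 267 to 302, with 2 called in each direction. Of the tissues that make much of their own unsaturated fat, adipocytes had Adipoq and Plin1 at 0. The 6 adipocyte markers summed to at most 8.66 normalized reads in any library, and only Cfd was tested, with no call. Hepatocytes had Alb, Ttr and Serpina1c at 0 and only Apoa1 read, called higher at 5.09 to 13.6 normalized reads in the Piezo1cKO libraries. Apoa1 had 0 reads in the WT libraries and entered the test through the Piezo1cKO libraries. Erythroid markers summed to 16.3 to 33.3 normalized reads over all libraries, with 3 of 6 tested and none called. The part of other cell types in the changes given below was not tested, and in these bulk samples fewer cells of a type and less RNA per cell cannot be told apart.

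Called genes were common in this comparison, and the counts below are to be read against that. Of the 16746 genes tested on the deposited values, 63.0% were called, 31.6% higher and 31.4% lower in Piezo1cKO LSCs. Higher genes were 50.2% of those called, and 60.5% after each library was shifted to the same median. DEGs were 0.818% of genes on the deposited values and 24.9% of the 17352 genes tested on recovered reads. In 66.6% of genes all Piezo1cKO libraries lay beyond all WT libraries. Of the 9 members tested, 7 were called, 4 higher (Fads2, Fads1, Acsl4 and Acsl6) and 3 lower (Acsl3, Acsl5 and Scd2), and in 8 the groups did not overlap, the exception being Lpcat3. Acsl6, with 2 reads over the WT libraries, entered these counts with the help of its Piezo1cKO libraries. Fads2 was the 1 DEG on the deposited values. On recovered reads 4 members were DEGs, with Fads2, Fads1 and Acsl6 higher and Acsl3 lower. The median absolute log2 fold change of the members tested was 0.13 on the deposited values, beside 0.09 over all genes, and 0.24 on recovered reads, beside 0.44 over all genes.

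**Figure D1:**
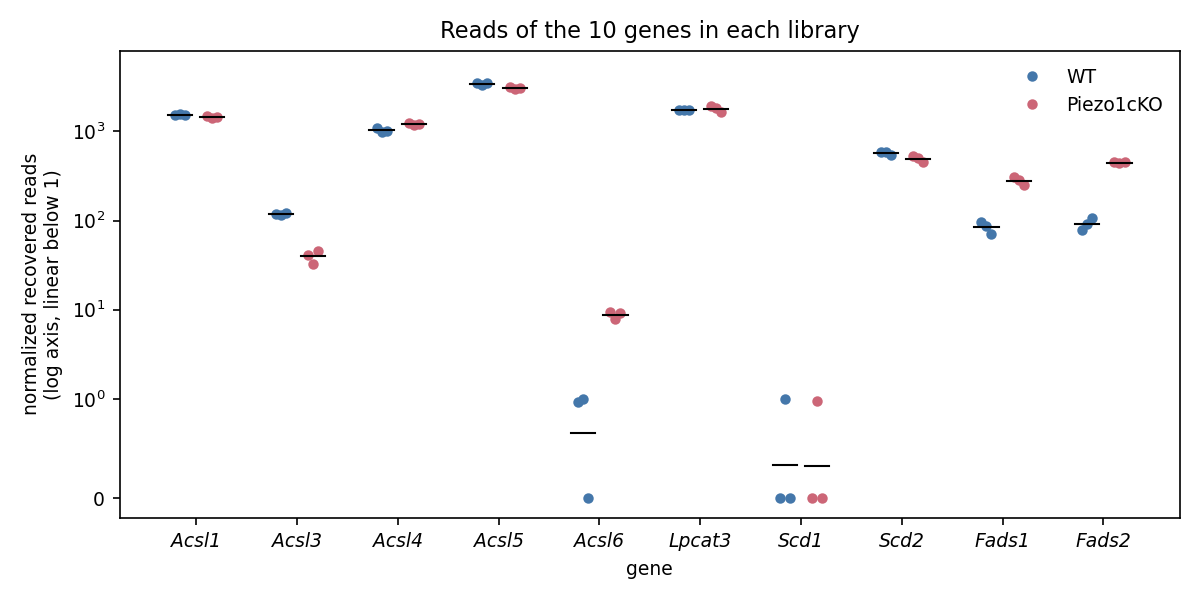
Normalized recovered reads of each of the 10 genes (vertical axis, logarithmic above 1 and linear below) in the 3 WT and 3 Piezo1cKO libraries, with points for libraries and bars for group means. Fads1 and Fads2 sit higher and Acsl3 lower in every Piezo1cKO library, Acsl6 goes from at most 1 read to 8 or 9, and Scd1 has 1 read in a single library of each genotype.

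Fads2, the desaturase of the entry step to polyunsaturated fatty acid synthesis, showed the largest change of the tested members on the deposited scale. It had 81, 90 and 111 recovered reads in the WT and 431, 450 and 443 in the Piezo1cKO libraries. The lowest Piezo1cKO library held more than the highest WT library by a wide margin. Normalized means were 92.1 ± 14.1 in WT and 446.6 ± 6.86 in Piezo1cKO (SD, n = 3 each), which is 485% of WT. The log2 fold change was 1.08 (SE 0.04, adjusted p = 8.56e-14, limma) on the deposited scale, the 37th highest of the 16746 genes tested. On recovered reads the fold was 4.86 (95% confidence interval 4.13 to 5.72).

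Fads1, the desaturase of the step that yields arachidonic acid, moved in the same direction. Its recovered reads were 98, 85 and 74 in the WT and 291, 293 and 245 in the Piezo1cKO libraries. The groups did not overlap here either. The normalized means were 84.0 ± 12.04 in WT and 279.6 ± 27.8 in Piezo1cKO (SD, n = 3 each), or 333% of WT, and the log2 fold change on the deposited scale was 0.72 (SE 0.04, adjusted p = 1.42e-10, limma), which ranked 109th highest. On recovered reads it was 3.33-fold (95% confidence interval 2.74 to 4.05). Per kilobase of exon, the ratio of Fads2 to Fads1 was 1.21, 1.55 and 2.19 in the WT libraries and 2.16, 2.24 and 2.64 in the Piezo1cKO libraries. These ranges overlapped, and the WT library with the most Fads2 reads was the one with the fewest Fads1 reads.

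The 2 genes lie close together on chromosome 19 (GRCm38, GENCODE M21), Fads2 at chr19:10062765-10101746 on the minus strand and Fads1 at chr19:10182888-10196877 on the plus strand, with their starts 81.1 kb apart and pointing away from each other. Of 14 genes annotated within 100 kb of the span of the pair, 10 were tested, and both counts include Fads1 and Fads2. Their values are a description, since this view was added after the values were seen. The well-read neighbours changed far less than Fads1 and Fads2. Fth1, the ferritin heavy chain, was at 109% of its WT level, Fen1, a DNA repair endonuclease, at 87.3%, and Tmem258, a subunit of the oligosaccharyltransferase, at 128%. Among neighbours with few reads, Best1 went from 9.48 to 30.9 normalized reads, or 326% of WT, close to the 333% of Fads1. Fads3, the third gene of the desaturase cluster, went from 11.7 to 22.5 with overlapping groups, and Rab3il1 from 37.7 to 14.3. Dagla, a diacylglycerol lipase, had 4.27 normalized reads in WT and 0 in Piezo1cKO, and passed the minimum of recovered reads only through the WT libraries. Changes around the pair thus went in both directions.

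**Figure D2:**
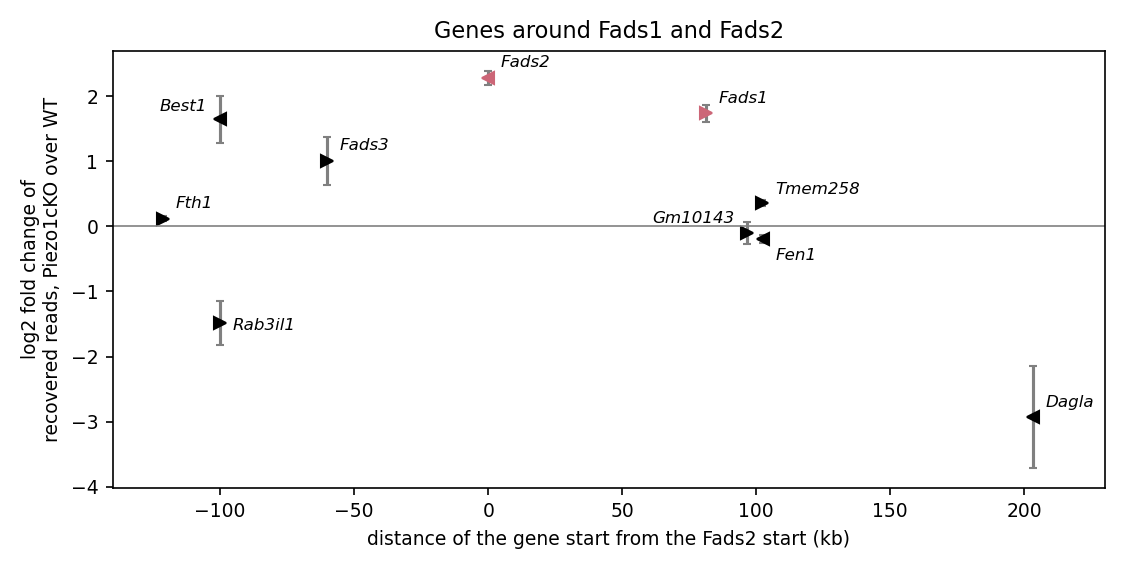
Log2 fold change of recovered reads (vertical axis, Piezo1cKO over WT, bars showing the standard error) of the 10 tested genes of this region, Fads1 and Fads2 included, by the distance of each gene's start from the Fads2 start in kb. Triangles point in the direction of transcription. Fads2 and Fads1, in red, stand highest, Best1, with few reads, lies close below Fads1 (1.64 and 1.73), and Fth1, Gm10143, Fen1 and Tmem258 lie near 0. The Dagla value, with 0 Piezo1cKO reads, is fitted and depends on the prior count.

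RefSeq promoter windows (GRCm38.p6, 250 bases before to 50 bases after a start) were at hand for 7 of the 10 genes, with 10 windows in all. Those of Fads2 and Acsl3 are shown because these genes changed most in each direction among members with a window and well over 10 reads a library. They lie at chr19:10101454-10101753 on the minus strand, with 67% G and C, and at chr1:78657575-78657874 on the plus strand, with 74% G and C. Capitals mark matches, on either strand, to 5 motifs searched by their letters: the sterol regulatory element core TCACNCCAC, the NF-Y box CCAAT, the E-box CACGTG, the C/EBP-ATF response element core TGATGNAA and the hypoxia response element core ACGTG, which lies within the E-box.
Fads2: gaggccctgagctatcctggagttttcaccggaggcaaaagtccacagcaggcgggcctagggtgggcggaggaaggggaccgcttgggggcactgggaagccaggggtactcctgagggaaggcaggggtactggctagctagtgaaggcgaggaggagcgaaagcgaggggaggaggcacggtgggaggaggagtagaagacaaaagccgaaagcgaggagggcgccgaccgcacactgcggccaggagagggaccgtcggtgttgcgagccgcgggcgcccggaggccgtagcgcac
Acsl3: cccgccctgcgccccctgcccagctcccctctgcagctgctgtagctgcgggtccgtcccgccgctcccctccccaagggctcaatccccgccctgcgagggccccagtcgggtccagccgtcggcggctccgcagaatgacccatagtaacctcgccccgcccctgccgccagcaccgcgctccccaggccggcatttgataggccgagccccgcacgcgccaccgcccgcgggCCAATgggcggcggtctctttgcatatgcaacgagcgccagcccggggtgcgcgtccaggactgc
The Fads2 window held none of the 5, and the Acsl3 window held 1 CCAAT that begins 15 bases before the start. The Fads2 window reaches 10101753, while the GENCODE gene starts at 10101746 on the minus strand, so almost all of the window lies inside that gene. Bases further upstream of the GENCODE start of Fads2 were not searched. Over all 32851 windows of the table, 1.24% held the sterol element, 37.4% the CCAAT box, 7.15% the E-box, 3.97% the C/EBP-ATF core and 19.6% the hypoxia core. Among the other members, the Lpcat3 window held 4 CCAAT boxes, a second Acsl1 window held the sterol element and 2 CCAAT boxes, and the Acsl5 window and 2 of the 3 Acsl6 windows held CCAAT boxes. These matches describe letters and are not evidence of binding.

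Scd2 (chr19:44293674-44306864, plus strand) and Scd1 (chr19:44394455-44407879, minus strand) are neighbouring paralogs with starts 114 kb apart, and both products make monounsaturated acyl-CoA. Scd2 was the one that these cells expressed at a measurable level. It had 601, 579 and 559 recovered reads in the WT and 504, 509 and 441 in the Piezo1cKO libraries. The groups did not overlap, with Piezo1cKO at 86.3% of WT and a log2 fold change of -0.13 (SE 0.04, adjusted p = 0.00885, limma). The call was lost without WT replicate 2 (log2 fold change -0.11, adjusted p = 0.0537) and without Piezo1cKO replicate 3 (-0.09, adjusted p = 0.069). Scd1, the liver and adipose paralog, had 0, 1 and 0 reads in each group, after rounding of values that did not come out whole, so no fold is given, and 2.66% of the 50-base stretches of Scd2 transcripts also occur in Scd1. The other paralogs Scd3 and Scd4 were listed at 0 in all libraries.

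Put together per kilobase, the desaturase reads changed in composition. This description was added after the values were seen. Scd2 made up 69.6% ± 1.77 of the reads per kilobase of the 4 desaturases in WT and 31.6% ± 1.15 in Piezo1cKO (SD, n = 3 each). Fads2 went from 18.7% ± 3.25 to 47.9% ± 2.34, and Fads1 from 11.7% ± 1.49 to 20.5% ± 1.17. No gene's range overlapped between the groups, apart from Scd1, which stayed at or below 0.135% in every library. The summed level of the 4 genes went from 150 ± 3.53 to 283 ± 12.7 normalized reads per kilobase. The ratio of Fads1 plus Fads2 to Scd2 was 0.409, 0.424 and 0.480 in the WT libraries and 2.07, 2.12 and 2.30 in the Piezo1cKO libraries.

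**Figure D3:**
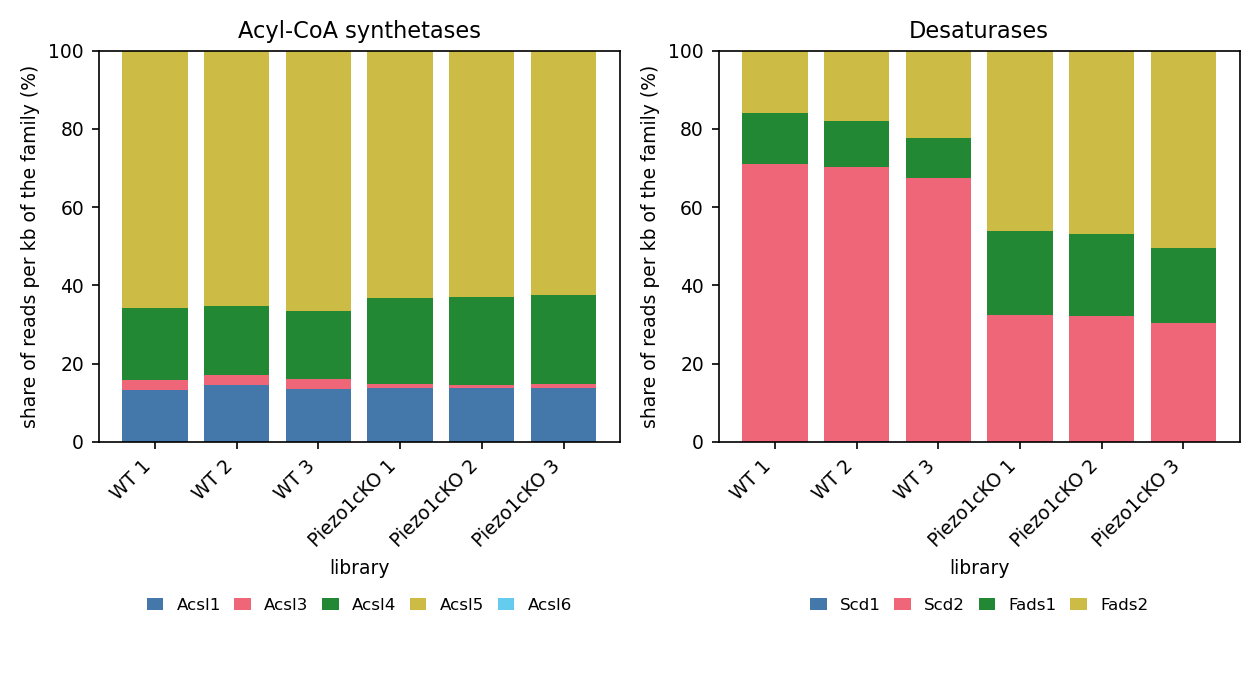
Share of each gene in the normalized reads per kilobase of its family (vertical axis, percent), in each library, for the 5 acyl-CoA synthetases and for the 4 desaturases. Acsl5 holds most of the first family in all 6 libraries, and Scd2 gives way to Fads2 and Fads1 in the second, from 69.6% to 31.6% of the reads on average.

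Acsl3 (chr1:78657825-78707743, plus strand) had the largest decrease of the tested members. It had 122, 115 and 125 recovered reads in the WT and 39, 33 and 45 in the Piezo1cKO libraries. Every Piezo1cKO library was far below every WT library. The normalized means were 118 ± 2.10 and 39.6 ± 6.89 (SD, n = 3 each), and the log2 fold change was -0.41 (SE 0.04, adjusted p = 2.39e-08, limma) on the deposited scale, where it ranked 636th lowest of the genes tested, and -1.59 on recovered reads (95% confidence interval -1.94 to -1.23). Acsl3 is among the ferroptosis suppressors the study picked from these libraries, so its direction here is not independent evidence. The study also measured ferroptosis related genes by qRT-PCR in the human leukemia cell line MOLM13, with primers for ACSL3 listed. Utp14b, a nucleolar protein gene on the same strand, shares 5.60% of the exon bases of Acsl3. It had 25, 27 and 16 reads in WT and 29, 21 and 30 in Piezo1cKO libraries, with no call (adjusted p = 0.392, limma).

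Acsl4 (chrX:142317993-142390535, minus strand) went the other way by a smaller amount. Its recovered reads were 1127, 978 and 1042 in the WT and 1179, 1211 and 1200 in the Piezo1cKO libraries, which placed all 3 Piezo1cKO libraries above the WT libraries. Acsl4 was at 118% of WT, with a log2 fold change of 0.16 (SE 0.03, adjusted p = 0.000468, limma). Because this gene is X-linked, the sex-linked genes were read as well. Xist, which coats the inactive X in females, had at most 1 read in any library, and the Y-linked Kdm5d, Eif2s3y and Ddx3y, read in every library, lay at 94.7% to 102% of WT with no call, while Uty, also Y-linked, was called at 108% of WT (adjusted p = 0.0245, limma).

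Within a library, the log2 value of Acsl4 minus that of Acsl3 was 3.68, 3.59 and 3.59 in WT and 4.20, 4.22 and 4.16 in Piezo1cKO. The difference of the means was 0.57 on the deposited scale and 1.82 as a log2 ratio of recovered reads. An exact two-sided permutation test over libraries gave p = 0.1, the smallest value that 3 against 3 allows, so the design cannot reach 0.05. The same balance for Scd2 minus Scd1 differed by -0.13 on the deposited scale (exact permutation p = 0.1). As a log2 ratio of recovered reads it differed by -0.26 with overlapping groups (exact permutation p = 0.5), and Scd1 was close to unread in both groups.

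Acsl5 (chr19:55251938-55297720, plus strand), a synthetase of mitochondria and endoplasmic reticulum known from intestine and liver, was the most abundant of the family. It had 3578, 3244 and 3582 recovered reads in WT and 3028, 3063 and 2990 in Piezo1cKO libraries. It fell to 90.2% of WT, with groups that did not overlap and a log2 fold change of -0.11 (SE 0.03, adjusted p = 0.00221, limma). Zdhhc6, a palmitoyltransferase gene on the opposite strand, shares 8.31% of the exon bases of Acsl5 and also fell, to 78.9% of WT (adjusted p = 5.95e-07, limma). Whether counting used strand is not given in the sources used here, and the library protocol does not mark it, so reads in the shared bases cannot be told apart.

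Acsl1 (chr8:46471037-46536051, plus strand), the main synthetase of adipose tissue, heart and activated macrophages, did not pass the test. It had 1551, 1567 and 1575 reads in WT and 1424, 1454 and 1429 in Piezo1cKO libraries. On the normalized scale the groups did not overlap, with Piezo1cKO at 94.7% of WT, and the log2 fold change was -0.05 (SE 0.03, 95% confidence interval -0.12 to 0.01, adjusted p = 0.125, limma).

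Acsl6 (chr11:54303798-54364756, plus strand), best known from brain and from developing red cells, had 1, 1 and 0 recovered reads in WT and 9, 8 and 9 in Piezo1cKO libraries. The groups did not overlap, but the level stayed low in both. The log2 fold change was 0.06 (SE 0.01, adjusted p = 0.000388, limma) on the deposited scale, where few reads leave a strong pull. The summed reads, 2 against 26, gave a ratio of 13.4 after normalization, with an exact counting interval of 3.36 to 117. Acsl6 reached the minimum of 10 reads of the recovered-read test through its Piezo1cKO libraries. Its deposited WT values, with a mean of 2.18, are drawn towards the gene average and so reflect those libraries too. Neither filter was thus independent of the group where Acsl6 is high.

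Among the 5 synthetases per kilobase, Acsl5 held 65.8% ± 0.66 of the reads in WT and 62.8% ± 0.34 in Piezo1cKO (SD, n = 3 each). Acsl4 held 17.9% ± 0.64 and 22.4% ± 0.22, Acsl1 13.8% ± 0.72 and 13.8% ± 0.0475, and Acsl3 2.56% ± 0.0487 and 0.905% ± 0.146. Acsl6 stayed below 0.1% in every library. The shares of Acsl3, Acsl4, Acsl5 and Acsl6 did not overlap between groups (exact two-sided permutation p = 0.1 for each, the smallest this design allows), and that of Acsl1 did (exact permutation p = 1). The summed level of the family was 1062 ± 27.0 normalized reads per kilobase in WT and 1003 ± 27.4 in Piezo1cKO.

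Lpcat3 (chr6:124663027-124704418, plus strand), whose product puts arachidonic and linoleic chains into phospholipids, was well read in both groups. It had 1775, 1717 and 1816 recovered reads in WT and 1817, 1859 and 1615 in Piezo1cKO libraries, and the groups overlapped. Piezo1cKO was at 103% of WT, with a log2 fold change of 0.03 (SE 0.03, 95% confidence interval -0.04 to 0.10, adjusted p = 0.502, limma). Emg1 on the opposite strand shares 10.2% of the exon bases of Lpcat3 and was at 87.3% of WT (adjusted p = 0.000476, limma).

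**Figure D4:**
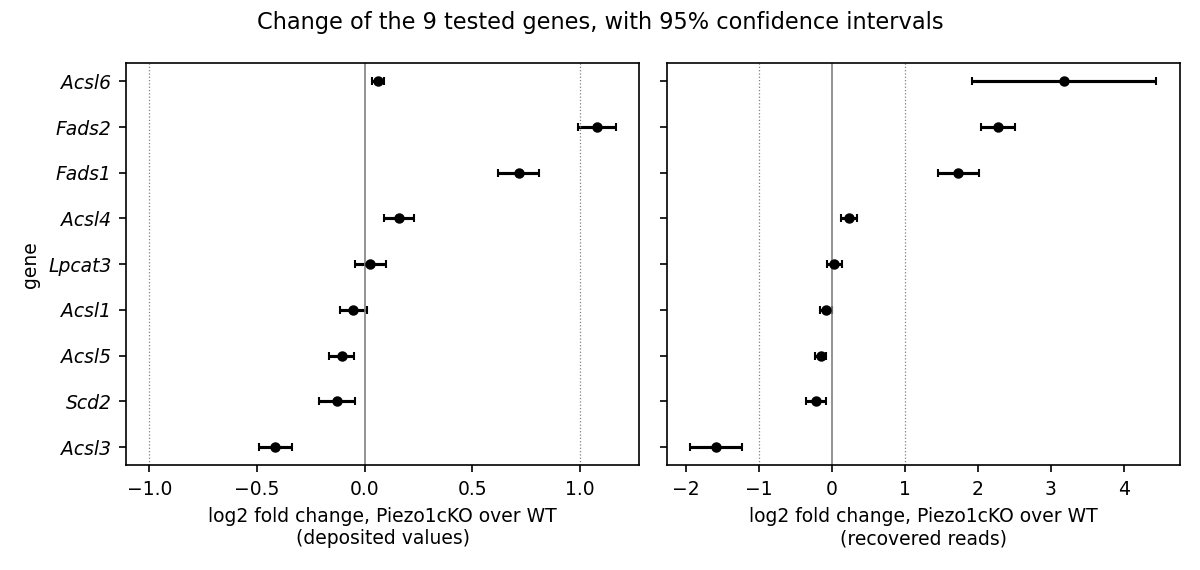
Log2 fold change (horizontal axis, Piezo1cKO over WT) of the 9 tested genes, with 95% confidence intervals, on the deposited values at left and on recovered reads at right; dotted lines mark a log2 fold change of 1 in either direction. Acsl6, Fads2, Fads1, Acsl4 and Lpcat3 lie above 0 and Acsl1, Acsl5, Scd2 and Acsl3 below it on both scales, and Acsl6, with 26 reads at most in a group, has the widest interval on the right.

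The order of levels, compared per kilobase of exon, was led by the same genes in both groups. In WT it was Acsl5 (698 normalized reads per kilobase), Lpcat3 (531), Acsl4 (190), Acsl1 (146), Scd2 (104), Fads2 (27.9), Acsl3 (27.1), Fads1 (17.5), Scd1 (0.0688) and Acsl6 (0.0666). Neighbours in this order whose library ranges overlapped were Fads2 with Acsl3 and Scd1 with Acsl6. In Piezo1cKO LSCs Fads2, at 136, lay beside Acsl1, at 139, with overlapping ranges and above Scd2, at 89.8, while Fads1 (58.1) stood above Acsl3 (9.08), Acsl6 (0.886) and Scd1 (0.0664).

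Around these members, 6 lists with 97 genes of the same pathways were read in the same fit. Of the 82 tested, 26 were called higher and 31 lower, beside 31.6% and 31.4% of all genes, with a median log2 fold change of -0.03 on the deposited values, beside 0.00 over all genes. All 6 lists are described by counts and medians alone.

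Genes of fatty acid uptake and activation outside the long-chain synthetases had no member called lower. Of 20 genes, 10 were tested and 6 were called higher, with a median log2 fold change of 0.11. Acss2, the cytosolic acetyl-CoA synthetase, had 51, 55 and 41 recovered reads in WT and 287, 267 and 251 in Piezo1cKO libraries (565% of WT, log2 fold change 0.93, adjusted p = 1.47e-12, limma). Its mitochondrial counterpart Acss1 was at 272% of WT (0.91, adjusted p = 4.24e-14) and the fatty acid transporter Slc27a1 at 237% (0.82, adjusted p = 1.3e-13). Cd36, a scavenger receptor that takes up fatty acids and is abundant on macrophages and endothelium, had 0, 1 and 0 reads in WT and 54, 71 and 52 in Piezo1cKO libraries (log2 fold change 0.43, adjusted p = 1.43e-09, limma), a read ratio of 183 with a counting interval of 32.4 to 7255. Slc27a5, the bile acid and very long chain acyl-CoA synthetase known from liver, had 0, 0 and 1 against 16, 17 and 15 reads (log2 fold change 0.12, adjusted p = 6.83e-06, limma). Cd36 and Slc27a5 passed the minimum of recovered reads only through the Piezo1cKO libraries. The macrophage and dendritic cell marker C1qc went from 0 reads in all WT libraries to 21, 29 and 15, with C1qa at 0 throughout and Adgre1 at 615 to 629 and 594 to 642 reads, and its part in the Cd36 reads was not tested.

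The elongation cycle and the remaining desaturation genes were called in both directions. Of 22 genes, 19 were tested, 5 called higher and 8 lower, with a median of -0.03. Degs1, which desaturates dihydroceramide to ceramide, had 3431, 3136 and 3283 reads in WT and 1625, 1608 and 1622 in Piezo1cKO libraries, or 50.9% of WT (log2 fold change -0.69, adjusted p = 4.3e-13, limma). Cyb5b, a cytochrome b5, was at 70.5% (-0.35, adjusted p = 3.92e-09) and Hacd2, a dehydratase of the elongation cycle, at 69.1% (-0.33, adjusted p = 1.26e-07), while the dehydratase paralog Hacd4 was at 280% (0.46, adjusted p = 3.53e-08) and Elovl6, which elongates palmitate to stearate, at 143% (0.26, adjusted p = 1.11e-05). Elovl2 and Fads6 were chosen after their values were seen. Elovl2, an elongase of polyunsaturated chains, had 8, 7 and 12 reads in WT and 0 in every Piezo1cKO library, at least 8.72-fold lower against a floor of 3 reads over the group, and Fads6 had 6, 4 and 5 reads against 23, 18 and 21. The minimum of recovered reads was passed by Elovl2 only through the WT libraries. Elovl5, the main elongase between the Fads2 and Fads1 steps and likewise chosen after its value was seen, was at 77.7% of WT (log2 fold change -0.23, adjusted p = 0.000152, limma).

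Acyltransferases and phospholipases, which decide where acyl chains sit in glycerolipids, held the largest change of the 6 lists on the deposited scale. All 22 were tested, 6 were called higher and 10 lower, with a median of -0.06 and 1 DEG. That DEG was Lpcat2, an acyltransferase of platelet-activating factor synthesis found in inflammatory cells, with 104, 99 and 93 reads in WT and 863, 845 and 877 in Piezo1cKO libraries (902% of WT, log2 fold change 1.73, adjusted p = 2.28e-17, limma). Per kilobase, the ratio of Lpcat2 to Lpcat3 went from 0.0538 ± 0.00388 to 0.473 ± 0.0447 (SD, n = 3 each), so Lpcat3 remained the more abundant of the pair. Lpcat1, known from lung surfactant, was at 187% (0.52, adjusted p = 8.84e-10) and Agpat3 at 206% (0.40, adjusted p = 1.43e-07). Lclat1, a cardiolipin and phosphoinositide acyltransferase, was at 51.4% (-0.40, adjusted p = 1.39e-07). Gpat3, which starts triglyceride synthesis and is best known from adipose tissue, had 49, 43 and 69 reads in WT and 0 in every Piezo1cKO library (log2 fold change -0.38, adjusted p = 1.79e-08, limma), at least 52.0-fold lower against a floor of 3 reads over the group. Mboat2, chosen after its values were seen, encodes an acyltransferase that favours monounsaturated chains and had 18, 14 and 15 reads against 0, 1 and 0. Gpat3 and Mboat2 passed the minimum of recovered reads only through the WT libraries.

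Ether lipid genes, whose products carry much of the polyunsaturated chains of many membranes, were called in both directions. All 7 were tested, with 4 called higher and 2 lower, beside 31.6% and 31.4% of all genes, and a median of 0.10. Far2, a paralog of Far1, was at 111% of WT with overlapping groups (log2 fold change 0.10, adjusted p = 0.0398, limma). Far1, which makes the fatty alcohol, was at 63.6% of WT (log2 fold change -0.47, adjusted p = 1.49e-10, limma) and Gnpat, which takes the first peroxisomal step, at 87.1% (-0.14, adjusted p = 0.000416). The peroxisomal import receptors Pex7 and Pex5 were at 133% (0.29, adjusted p = 2.78e-08) and 114% (0.10, adjusted p = 0.0202), and Tmem189, the plasmanylethanolamine desaturase, at 203% (0.25, adjusted p = 1.14e-05).

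Regulators of lipid synthesis from the SREBP, LXR and PPAR families were called in both directions. Of 18 genes, 16 were tested, with 7 called lower and 4 higher, beside 31.4% and 31.6% of all genes. The other 5 were not called, and the median was -0.05. Srebf1, whose product is the main activator of Scd and Fads genes in liver, had 505, 562 and 559 reads in WT and 304, 361 and 374 in Piezo1cKO libraries, or 65.8% of WT (log2 fold change -0.34, adjusted p = 1.39e-06, limma). These are mRNA levels, the activity of the Srebf1 product was not measured in these data, and its part in the change of Fads1 and Fads2 was not tested. Srebf2, which favours sterol genes, was at 74.5% (-0.28, adjusted p = 1.3e-06), and Mlx, a partner of the carbohydrate response factors, at 57.3% (-0.52, adjusted p = 3.04e-10). Pparg, the receptor that drives fat storage genes, went from 40, 36 and 44 reads to 1, 0 and 0 (log2 fold change -0.29, adjusted p = 2.03e-08, limma), and Rxrb, a common receptor partner, was at 134% (0.27, adjusted p = 7.33e-06). Only through the WT libraries did Pparg pass the minimum of recovered reads.

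Genes that handle lipid peroxides were tested in full, with 1 of 8 called higher and 4 lower and a median of -0.07. Cyb5r1, an oxidoreductase that can feed electrons to peroxidation, was at 55.0% of WT (log2 fold change -0.55, adjusted p = 2.6e-09, limma), Prdx6, which reduces phospholipid hydroperoxides, at 63.6% (-0.48, adjusted p = 1.5e-12), and Vkorc1l1, which reduces vitamin K, at 66.1% (-0.28, adjusted p = 2.36e-06). Aifm2, which reduces coenzyme Q at the membrane, was at 143% (0.23, adjusted p = 0.000129). Gpx4, the phospholipid hydroperoxide peroxidase, had 2544, 2754 and 2813 reads in WT and 2617, 2862 and 2811 in Piezo1cKO libraries and did not pass the test (log2 fold change 0.05, adjusted p = 0.131, limma).

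**Figure D5:**
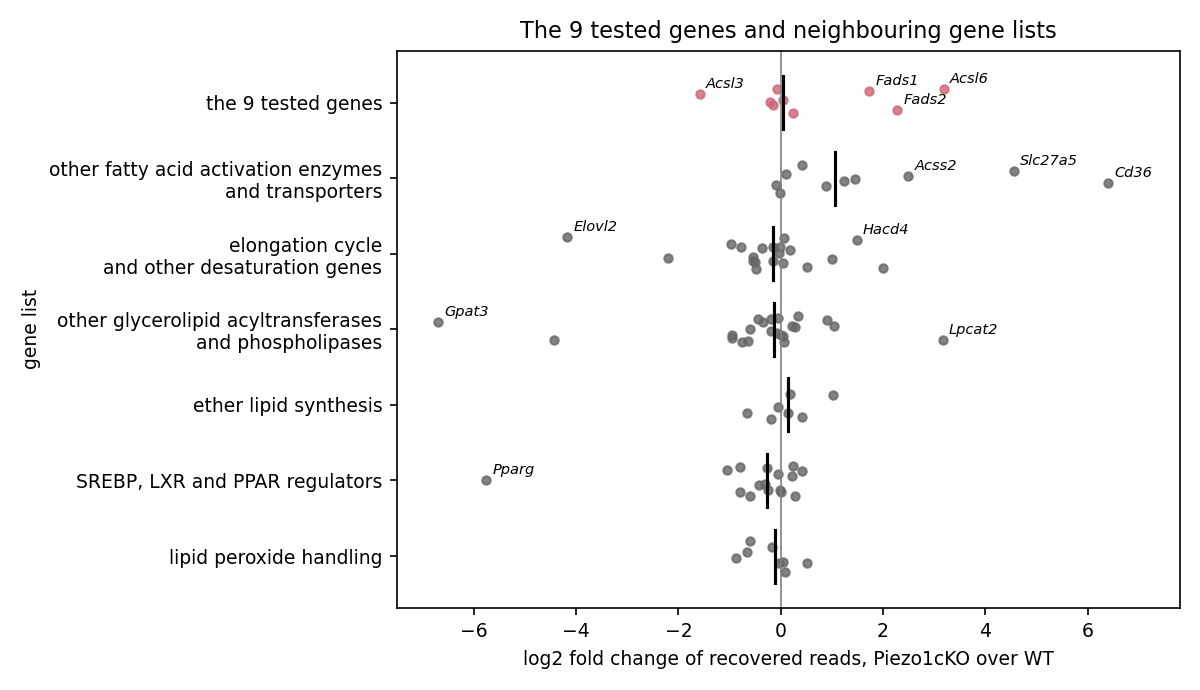
Log2 fold change of recovered reads (horizontal axis, Piezo1cKO over WT) of the 9 tested genes, in red, and of the genes of the 6 neighbouring lists, in grey; each point is a gene and each bar the median of its row. Values of genes with 0 reads in a group, such as Gpat3 and Elovl2, are fitted and depend on the prior count; Cd36 and Lpcat2 lie far to the right of their lists.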

How the data were processed

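RNA-seq of 3 WT and 3 Piezo1cKO LSC libraries was analysed. Per the labels and the methods of the study, the authors used fastp 0.20.1 for trimming, hisat2 2.2.1 for alignment to GRCm38, featureCounts 2.0.1 for counting and DESeq2 1.28.1 for normalization. The deposited table holds log2 values from -1.97 to 18.06 for 26402 genes and 0 in all libraries for 28965. Their form is that of a regularized log, which the sources used here do not name.

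Genes with a mean deposited value of at least 1 (16746) entered a linear model in limma 3.58.1 under R 4.3.3 (lmFit, then eBayes with a trend), with no covariates and no pseudocount. Reads were recovered by searching for the size factors and the strength of shrinkage that made the values whole, and 2 of 24 starts arrived at the best solution. Among 18331 genes averaging 1 read or more, 90.5% of values were whole to within 0.1 (70.6% in the class of most abundant genes, which holds Acsl1, Acsl4, Acsl5 and Lpcat3, whose reads are rounded), and with the shrinkage set 10% off only 22.0% were. Simulated reads of 3974 genes were returned exactly (100%). The simulation used the same formula that was then undone and drew no mean from the class of most abundant genes. It therefore cannot show that the deposited values follow this formula. Values of genes averaging under 1 read (26.6% near a whole number) were rounded. Recovered reads of 17352 genes with at least 10 in total were analysed with limma-voom. Both models were tested on simulated data with 200 changed genes.

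Coordinates and exon lengths came from GENCODE M21 (GRCm38), and promoter windows from RefSeq. The members, lists and tests were chosen with earlier results of these data known. The genes named are the 10 members, Piezo1, up to 5 genes a list with the largest change among those called with groups that do not overlap, and any gene of a list under 9 genes. Markers were taken from fixed lists. The sex-linked genes, the genes that overlap members and the neighbours of Fads1 and Fads2 were added after the values were seen. Alternatives were no filter, a mean of at least 50 recovered reads, equal medians, recovered reads with size factors or library totals, a replicate block and each library left out in turn. Replicates of a group differed by more than counting noise in every pair. Remaining steps ran in Python 3.11.15 with numpy 2.4.6, scipy 1.17.1, pandas 2.3.3 and matplotlib 3.10.9.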

Additional observations from a re-analysis of the deposited data

How the results depend on the processing

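The 7 calls among the members kept their direction under all alternatives, and 6 to 7 members were called when a library was left out in turn, the call that was lost being Scd2. Acsl6 was below the filter of a mean of at least 50 recovered reads and was not tested there. DEGs over all genes numbered 137 on the deposited values (134 to 144 without each library), 4322 on recovered reads and 4333 on recovered reads scaled to library totals. Those fits also changed the filter and the model, and the part of each choice was not tested. Genes called at an adjusted p under 0.05 numbered 9596 to 10121 without each library, and list genes called 52 to 56, beside 57 with all libraries. The difference in the share of Acsl1 within its family, 0.04 percentage points, turned to -0.10 without division by length and ranged from -0.25 (without WT replicate 1) to 0.44 when a library was left out, with -0.08 without WT replicate 3. The log2 fold change of Lpcat3 turned from 0.03 to -0.0047 without Piezo1cKO replicate 1 and reached 0.067 without Piezo1cKO replicate 3, and none of these passed the test. The cause of these turns was not tested. Same-numbered libraries correlated at 0.195, 0.161 and 0.0696 in their deviations from the group means, and not all exceeded 0.1, so the numbers were not taken to pair them, although every library correlated best with its own number. With the number as a replicate block, 11055 genes were called, 137 were DEGs and 7 members and 59 list genes were called, while the paired sign permutation of both balances gave an exact p of 0.25. Depth limits Scd1 and Acsl6, with 1 and 2 reads over the WT libraries.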
